A study of Mus musculus with 12 samples.

Results

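Among 6 libraries of sorted mouse embryonic stem cells that carry a BMP reporter, the pair numbered 1 stood apart from the pairs numbered 2 and 3, and this difference is described here gene by gene. The comparison sets BRE_neg_1 and BRE_pos_1 (2 libraries, called collection 1 below) against BRE_neg_2, BRE_neg_3, BRE_pos_2 and BRE_pos_3 (4 libraries, collections 2 and 3), out of 12 libraries in the series. All 6 libraries had the genotype BRE-GFP, in which a BMP response element drives green fluorescent protein, on a mixed CBA, C57Bl/6 background. The cells grew in fetal calf serum (FCS) and Lif on feeders and were sorted on SSEA1, a surface antigen of undifferentiated mouse stem cells, and on GFP into reporter-negative (BRE_neg) and reporter-positive (BRE_pos) cells. One negative and one positive library made up each of 3 collections, taken at different times. The labels number the collections 1 to 3 and do not say that the numbers follow their order in time. The other 6 libraries (2 Smad1/5 floxed, FL, and 4 knockout, KO) came from other lines grown in 2i + Lif on gelatin, and serve here only as a reference for feeder transcripts.

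Serum and Lif keep mouse embryonic stem cells in a mixture of states. Nanog, Klf4, Esrrb and Tbx3 belong to the transcription factor network of the naive state, and Dnmt3a, Dnmt3b and Dnmt3l to the machinery that lays down DNA methylation as cells move towards the epiblast. A set of germline genes is silenced by promoter methylation in the epiblast and is read as a sign of the methylation state. Feeders are fibroblasts, whose transcripts include those of collagens and of contractile proteins.

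The split was chosen from these data: it follows the main axis of variation in the 6 libraries. Values of collection 1 against collections 2 and 3 are therefore a description, without a test, and nothing is supported with them. On the first principal component (52.19% of the variance) collection 1 scored -41.39 in BRE_neg and -37.24 in BRE_pos cells, and the other 4 libraries scored between 15.6 and 23.77. On the second component (20.88%) collection 2 scored -28.6 and -8.43, collection 1 -4.45 and 4.08, and collection 3 7.58 and 29.82. Both libraries of a collection came from 1 collection, so n counts libraries, and collection 1 is a single collection.

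**Figure D1:**
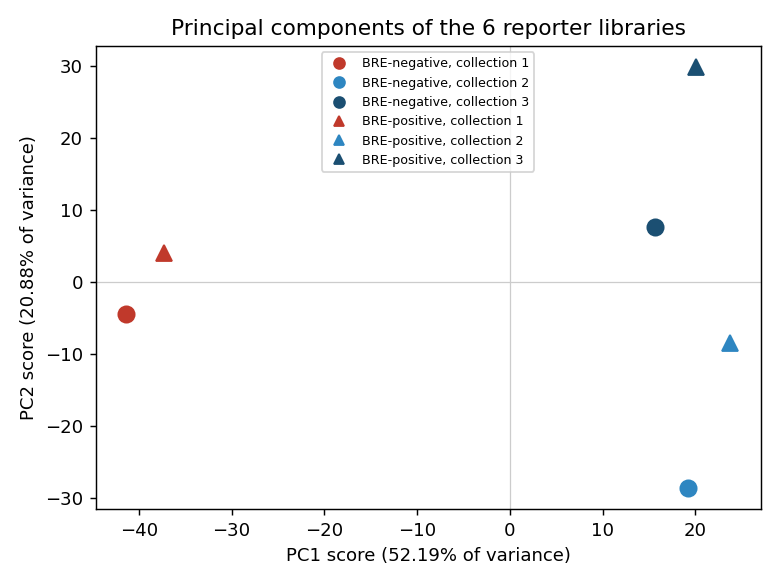
Scores of the 6 reporter libraries on the first (x axis) and second (y axis) principal component of log2 CPM, read counts scaled to library size; circles are BRE-negative and triangles BRE-positive libraries, coloured by collection. Collection 1 lies at -41.39 and -37.24 on the first component, and the 4 libraries of collections 2 and 3 lie at 15.6 or above.

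Totals ran from 25862573 to 37079106 counts per library, and values are given as CPM, the number of reads of a gene per 1e6 of the scaled library total. Of 15435 genes tested, 3295 (21.3%) were above all 4 libraries of collections 2 and 3 in both libraries of collection 1, and 3154 (20.4%) were below all 4. With a fitted difference past 2-fold as well, 257 genes (1.67%) were higher and 447 (2.9%) lower in collection 1. The filter on low counts asked for enough reads in more than 2 libraries. A gene counted only in collection 1 could therefore not pass, and one counted only in the other 4 libraries could. The part of this filter in the excess of lower genes was not tested. Between single libraries of one reporter state, 215 to 290 genes differed over 2-fold (on log2(CPM + 1)) where collection 1 was one of the pair, and 25 or 29 between collections 2 and 3. The median log2 difference over all genes was 0.0024. Small noncoding RNAs took 2.921% and 2.315% of the counts in collection 1 and 0.8379% to 1.762% in the others. Across 13640 protein-coding genes, Spearman's rho of the difference was 0.279 with GC content and -0.146 with exon length. With per-library offsets for both properties, the counts past 2-fold were 193 higher and 452 lower.

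Most markers of feeder fibroblasts and of blood cells stood lower in collection 1. The feeder list holds 28 genes of extracellular matrix and contractile cells. Of 27 tested, 19 were below all 4 other libraries, 14 of them past 2-fold, and none was above, with a median log2 difference of -1.01. A list member had to pass the filter on low counts to be tested, here and below. These counts leave out genes that were low throughout and genes counted only in collection 1. Postn, the matrix protein periostin (ENSMUSG00000027750, chromosome 3, 54361109 to 54391037), had 1.11 CPM in BRE_neg_1 and 0.75 CPM in BRE_pos_1. It had 9.20 and 10.7 CPM in BRE_neg_2 and BRE_neg_3 and 8.03 and 6.96 CPM in BRE_pos_2 and BRE_pos_3. Means were 0.929 ± 0.253 CPM (SD, n = 2) and 8.71 ± 1.59 CPM (SD, n = 4), a 9.37-fold difference, and the groups did not overlap.

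Acta2, smooth muscle actin, had 1.25 and 0.375 CPM in collection 1 and 2.04 to 7.59 CPM in the others (log2 difference -2.54). Col1a1 and Col1a2, the chains of type I collagen, differed by -1.62 and -1.53 on the log2 scale, and Dcn (decorin) and Lum (lumican) by -2.03 and -2.53. Without BRE_neg_1 the differences of Col1a1, Col1a2, Dcn and Lum were larger, at -1.93, -1.89, -2.80 and -3.54. Without BRE_pos_1 those of Col1a1, Col1a2 and Dcn were smaller, at -1.34, -1.21 and -1.55. Thbs1, the matrix glycoprotein thrombospondin 1, had 23.3 and 11.7 CPM against 47.8 to 77.9 CPM. The summed level of the 7 defining feeder markers was 39.9 CPM in BRE_neg_1 and 23.9 CPM in BRE_pos_1. It was 74 to 92.3 CPM in the other 4 libraries and 3.82 to 5.91 CPM in the FL and KO libraries, grown on gelatin. Over the whole feeder list the sums overlapped, at 1706 and 1564 CPM in collection 1 and 1550 to 2028 CPM in the others. All 6 reporter libraries came from cells sorted on SSEA1, a gate for stem cells and not for fibroblasts or blood cells, and the source of these transcripts was not tested. Fewer cells of a type and less RNA per cell cannot be told apart in bulk samples.

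Of 9 blood markers tested, 6 were below all 4 libraries and past 2-fold, and 1 was above. The one above was Cd68, a lysosomal protein of macrophages, with 16 and 15.4 CPM against 8.54 to 13.7 CPM. Laptm5, a lysosomal membrane protein, overlapped at 45.7 and 52.7 CPM against 46.5 to 67.7 CPM. Lyz2, the lysozyme of macrophages (ENSMUSG00000069516, chromosome 10), had 0.998 and 0.688 CPM in collection 1 and 10.8 to 15.3 CPM in the others, a 14.4-fold difference. Nckap1l, outside the list, encodes a blood-cell regulator of actin and had 0.998 and 0.594 CPM against 7.16 to 14.3 CPM (log2 difference -3.65, -4.37 without BRE_neg_1 and -3.05 without BRE_pos_1). Lyz2 was at 0 to 0.11 CPM in the gelatin libraries, while Nckap1l was at 4.58 to 6.71 CPM there. The 4 defining blood markers summed to 0.36 and 0.281 CPM in collection 1 and to 1.96 to 2.81 CPM in the others, all low levels. The 7 embryonic stem cell markers summed to 1710 and 1720 CPM in collection 1 and 1840 to 2020 CPM in the others, so the label of the cells held in all 6.

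**Figure D2:**
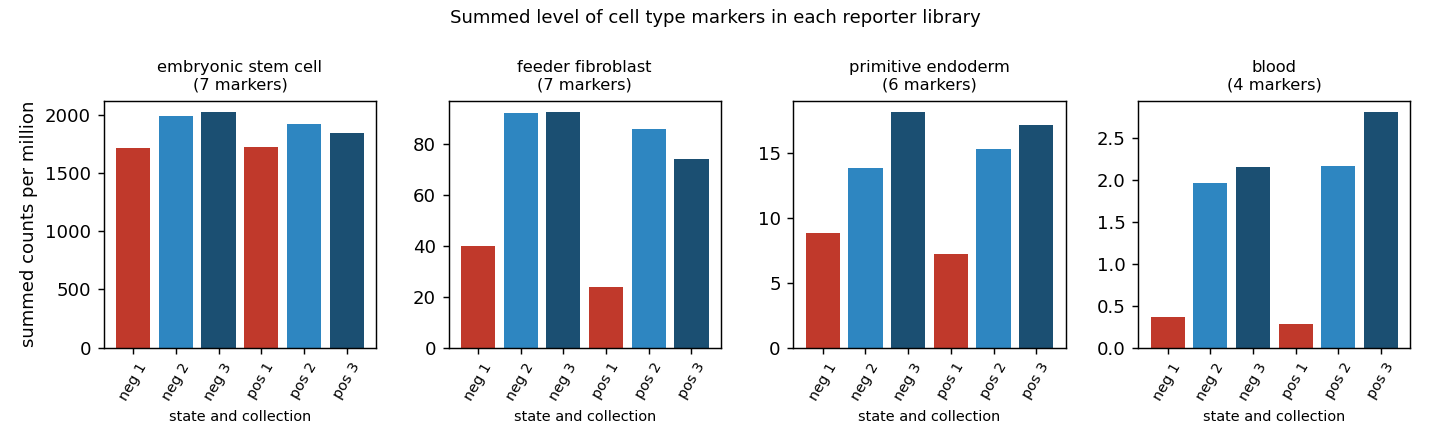
Summed CPM (y axis, a separate linear scale in each panel) of defining markers of 4 cell types in each reporter library (x axis, state and collection), with collection 1 in red, collection 2 in light blue and collection 3 in dark blue. Feeder markers stand at 39.9 and 23.9 CPM in collection 1 and at 74 or above in the others, and stem cell markers lie between 1710 and 2020 CPM.

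Genes of extraembryonic endoderm were lower in part. Of 20 tested, 11 were below all 4 libraries, 5 of them past 2-fold, and 2 were above (median -0.82). Cubn, the endocytic receptor cubilin (ENSMUSG00000026726, chromosome 2, 13276338 to 13491813), had the largest difference of the named genes. It had 0.194 and 0.125 CPM in collection 1, 3.57 and 3.95 CPM in BRE_neg and 5.54 and 7.07 CPM in BRE_pos cells of collections 2 and 3, a 29.5-fold difference. Its log2 difference of -4.88 was -5.60 without BRE_neg_1 and -4.24 without BRE_pos_1. Gata6, the transcription factor of primitive endoderm, had 0.277 and 0.469 CPM against 1.44 to 2.39 CPM. Dab2, an endocytic adaptor, and Sparc, a basement membrane protein, differed by -1.35 and -0.85 on the log2 scale. The 6 primitive endoderm markers summed to 8.84 and 7.22 CPM in collection 1 and 13.8 to 18.1 CPM in the others. Of these markers, Sox17 and Sox7 overlapped. Over the whole endoderm list the sum went the other way, at 2251 and 2078 CPM in collection 1 against 1700 to 2005 CPM. The sums of these 6 markers and of the feeder markers were both lower in collection 1, the split that was chosen. From collection 2 to 3 the endoderm sum went from 13.8 to 18.1 CPM in BRE_neg and from 15.3 to 17.1 CPM in BRE_pos cells. The feeder sum went from 92 to 92.3 CPM and from 85.6 to 74 CPM. The part of either cell type in the other's values was not tested.

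Germline genes known to depend on promoter methylation stood lower in collection 1 as well. Of 18 tested (24 in the list), 14 were below all 4 libraries, 5 past 2-fold, and 1 was above (median -0.68). Stra8, the retinoic acid target that starts meiosis (ENSMUSG00000029848, chromosome 6, 34920163 to 34939344), had 0.61 and 0.688 CPM in collection 1 and 3.81 to 5.54 CPM in the others. Sycp1, a protein of the synaptonemal complex, had 2.16 and 2.75 CPM against 5.89 to 7.88 CPM, and Mov10l1, a helicase of the piRNA pathway, 4.16 and 4.53 CPM against 7.63 to 10.3 CPM. Tex11, an X-linked meiosis gene, differed by -1.20 and Dazl, a germ cell RNA-binding protein, by -0.82 on the log2 scale.

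Sohlh2, a transcription factor of early germ cells (ENSMUSG00000027794, chromosome 3), was not in the list and had 0.249 and 0.406 CPM in collection 1 and 4.72 to 6.23 CPM in the others, a 16.7-fold difference. Arl14epl had 0.693 and 0.781 CPM against 6.92 to 7.4 CPM. Unlike the feeder markers, both were abundant in the 2i libraries on gelatin, Sohlh2 at 27.96 to 84.2 CPM and Arl14epl at 24.78 to 34.2 CPM. Both reporter states showed these values alike, and in collections 2 and 3 the 4 libraries of Arl14epl lay within 0.5 CPM.

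The letters CACGTG, the E-box read by MYC, MAX and related factors, were searched on both strands in the 250 bases before each gene start (RefSeq, GRCm38.p6). Of 13 list members below all 4 libraries that had a promoter in the table, 9 held the motif, and of the 4 others tested, 2 did. The share among all 32851 promoters was 6.02%. Here and below, a gene with several promoters was counted if any of them held the motif, while the share counts each promoter singly. The units differ, which favours the list genes. The upstream sequence of Sycp1 (chr3:102936101-102936350, minus strand) is shown because it is a named member past 2-fold that held the motif, 94 bases before the start. The E-box is in capitals, a match of letters only:
Sycp1: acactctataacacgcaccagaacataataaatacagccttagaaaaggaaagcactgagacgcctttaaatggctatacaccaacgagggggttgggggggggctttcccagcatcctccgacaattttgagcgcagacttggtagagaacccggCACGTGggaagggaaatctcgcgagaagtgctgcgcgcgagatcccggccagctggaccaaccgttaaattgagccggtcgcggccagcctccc

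Most naive pluripotency genes stood modestly lower in collection 1. Of 20 tested, 12 were below all 4 libraries, 1 past 2-fold, and 2 were above. Nanog (ENSMUSG00000012396, chromosome 6) had 291 and 293 CPM in collection 1 and 390, 554, 379 and 512 CPM in BRE_neg_2, BRE_neg_3, BRE_pos_2 and BRE_pos_3 (log2 difference -0.65, and -0.39 against collection 2 alone). Tbx3, a naive-state T-box factor, had 68.9 and 94 CPM against 149 to 174 CPM, a 2.04-fold difference. Esrrb and Klf4 differed by -0.35 and -0.33, and Zfp42 (Rex1) by -0.09 with overlapping groups.

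Dppa3, the maternal factor Stella (ENSMUSG00000046323, chromosome 6, 122626410 to 122630272), went the other way. It had 11.4 and 5.75 CPM in collection 1 and 1.31 to 3.65 CPM in the others, a 3.61-fold difference. Among 11 core pluripotency genes 5 were below all 4 libraries and none above. Sox2 had 467 and 495 CPM against 549 to 629 CPM, Pou5f1 (Oct4) overlapped at 540 to 702 CPM, and Dppa2 differed by -0.75. Of the genes behind the SSEA1 epitope, Fut9 was higher (44.3 and 51.3 against 30 to 42.5 CPM), and Fut4 lower (1.58 and 2 against 2.39 to 3.08 CPM).

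De novo methyltransferases differed in opposite directions. Dnmt3a had 101 and 95.8 CPM in collection 1, 233 and 203 CPM in collection 2 and 135 and 126 CPM in collection 3 (log2 difference -0.82, and -0.40 against collection 3 alone). Dnmt3b had 167 and 132 CPM in collection 1, 123 and 92.6 CPM in collection 2 and 72.6 and 63.3 CPM in collection 3 (0.77, and 0.48 against collection 2 alone). Tet1 and Tet2, which oxidise methylcytosine, stood lower, by -0.34 and -0.63. Of 24 genes of the methylation machinery, 4 were above and 5 below all 4 libraries, close to the shares over all genes.

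BMP targets, the readout of the reporter pathway, leaned lower in collection 1. Of 16 tested, 8 were below all 4 libraries, 1 of them past 2-fold, and 2 were above (median -0.40). Fst, the activin antagonist follistatin, had 4.02 and 4 CPM against 6.32 to 10.2 CPM. Dusp9, a phosphatase of ERK, had 135 and 118 CPM against 172 to 240 CPM. The inhibitors of differentiation Id1, Id2 and Id3 differed by -0.28, -0.21 and -0.64, and only Id3 did so without overlap. The inhibitory Smads split, with Smad7 lower (-0.28) and Smad6 higher (0.45), both without overlap.

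Higher in collection 1 were structured noncoding RNAs. Of 11 list members tested, 8 were above all 4 libraries, 3 of them (Snora73b, Rmrp and Rn7sk) past 2-fold. Rnu3a, outside the list, is a copy of the U3 small nucleolar RNA (ENSMUSG00000065870, chromosome 10, 40258467 to 40258680) and had 363 CPM in BRE_neg_1 and 236 CPM in BRE_pos_1. It had 33.2 and 35.9 CPM in the other BRE_neg and 22.9 and 20.7 CPM in the other BRE_pos libraries, a 10.6-fold difference. U3 has near-identical copies, so the assignment of its reads to this copy is uncertain. Snora73b had 200 and 111 CPM against 23.7 to 56.5 CPM, and Scarna6, also outside the list, 46.1 and 28.5 CPM against 6.21 to 15.2 CPM. Rmrp, the RNA of RNase MRP, had 4584 and 3628 CPM against 848 to 2287 CPM, and Rn7sk, the 7SK RNA that holds back transcription elongation, differed by 1.16. They are themselves part of the share of small noncoding RNA given above, so that share is not a separate observation. Rn7sk alone took 1.039% of the counts in BRE_neg_1 and 0.7731% in BRE_pos_1. The part of a general difference in small noncoding RNA in these values was not tested.

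Several protein-coding genes were higher too. Gna14, a G protein subunit, had 4.85 and 4.28 CPM in collection 1 against 0.434 to 0.776 CPM. Bcl11a, a zinc-finger repressor, had 5.54 and 6.06 CPM against 0.615 to 1.22 CPM, and Tmem151a 3.63 and 3.69 CPM against 0.687 to 1.23 CPM. Within collection 1 these 3 genes had nearly the same level in both reporter states. Esrp1, the epithelial splicing regulator (ENSMUSG00000040728, chromosome 4), had 45.7 and 33.6 CPM in collection 1 and 9.85 to 13.5 CPM in the others, a 3.22-fold difference. The list of cell adhesion and cytoskeleton was even, with 6 of 24 above and 6 below all 4 libraries (median -0.14). Its members above included the claudins of tight junctions Cldn7 (1.37) and Cldn6 (1.13) and the adhesion molecule Epcam (0.49). Those below included the integrins Itga5 (-0.67) and Itga6 (-0.44), and Cdh1, E-cadherin, overlapped (-0.17).

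The immediate early genes Fos and Fosb had 249 and 241 CPM, and 84.3 and 70.1 CPM, in collection 1. The ranges in the others were 99.8 to 138 CPM and 31.1 to 38.2 CPM. Of 21 stress and immediate early genes, 8 were above and 3 below all 4 libraries. Of 21 p53 targets, 7 were above and none below, among them the cell cycle inhibitor Cdkn1a (61.3 and 56.1 against 24.1 to 42.5 CPM) and the apoptosis gene Bbc3 (0.85).

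**Figure D3:**
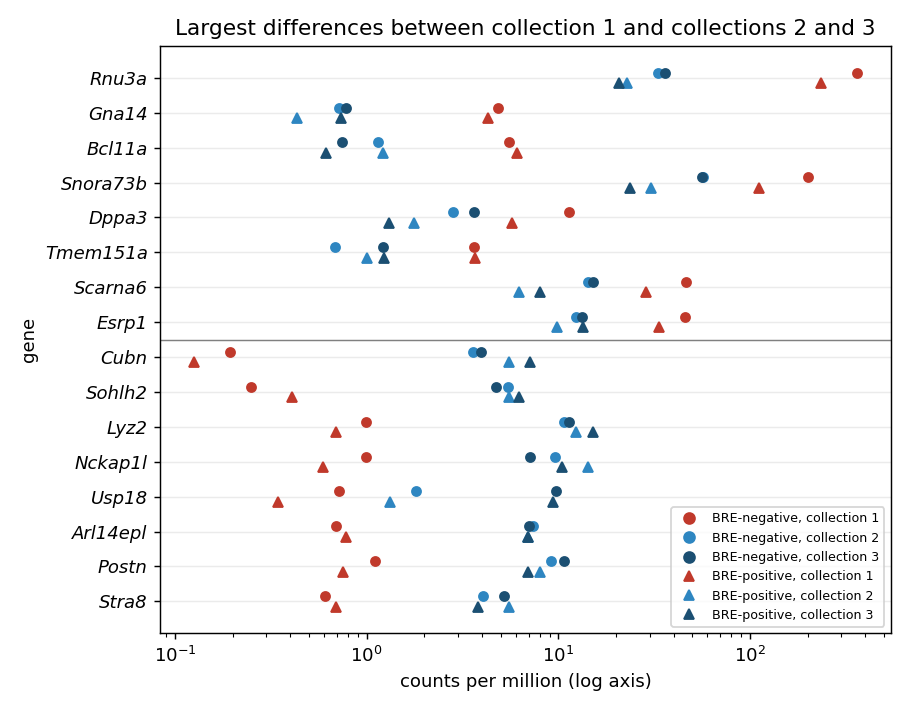
CPM (x axis, log scale) of the 8 named genes with the largest differences in each direction (y axis; higher in collection 1 above the line, lower below it), with 1 symbol per library, circles for BRE-negative and triangles for BRE-positive cells. The 2 red symbols of collection 1 lie on 1 side of all blue ones for each gene, because the genes were chosen so; for Usp18 collections 2 and 3 are also far from each other.

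By position, chromosome 6 had the lowest and chromosome 8 the highest median, and these 2 were picked for that. Their place outside the range of the others is therefore given by the choice and is no test. On chromosome 6, 237 of 635 tested protein-coding genes (37.3%) were below all 4 libraries and 57 (8.98%) above, with a median log2 difference of -0.159. On chromosome 8, 230 of 755 (30.5%) were above and 101 (13.4%) below, with a median of 0.101. The medians of the other 18 chromosomes lay between -0.087 and 0.054. Their shares below lay between 16% and 31.6%, and their shares above between 15.8% and 26.6%. The shift on chromosome 6 ran along its length: the medians of 6 windows of 25 Mb were -0.318, -0.124, -0.129, -0.113, -0.155 and -0.22. On chromosome 8 the first 5 windows had medians of 0.069 to 0.178, and the last, with 17 genes, -0.096. With the length and GC offsets the windows of chromosome 8 had medians of 0.073, 0.141, 0.114, 0.039, -0.003 and -0.046. The window at -0.003 held 232 genes, the most of these. Those of chromosome 6 then ran from -0.232 to -0.07. With the length and GC offsets the medians were -0.138 for chromosome 6 and 0.059 for chromosome 8, and -0.059 to 0.036 for the others.

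The reporter states differed on chromosome 6. Against the mean of the 6 libraries, its median was -0.122 in BRE_neg_1 and -0.098 in BRE_pos_1, -0.012 and 0.003 in BRE_neg_2 and BRE_neg_3, and 0.105 and 0.134 in BRE_pos_2 and BRE_pos_3. Taken gene by gene within each pair, the median of BRE_pos minus BRE_neg over its genes was 0.011 in collection 1 and 0.093 and 0.119 in collections 2 and 3. For the other 19 chromosomes it stayed between -0.052 and 0.071 in every collection. On chromosome 8 both states of collection 1 were high, at 0.086 and 0.055, and the other 4 libraries lay between -0.038 and -0.021. Nanog, Dppa3, Stra8, Usp18 and Col1a2 lie on chromosome 6, and their log2 differences are larger in size than its median. That of Dppa3 (1.85) has the opposite sign. DNA was not measured in these libraries, and the cause of the shifts was not tested.

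**Figure D4:**
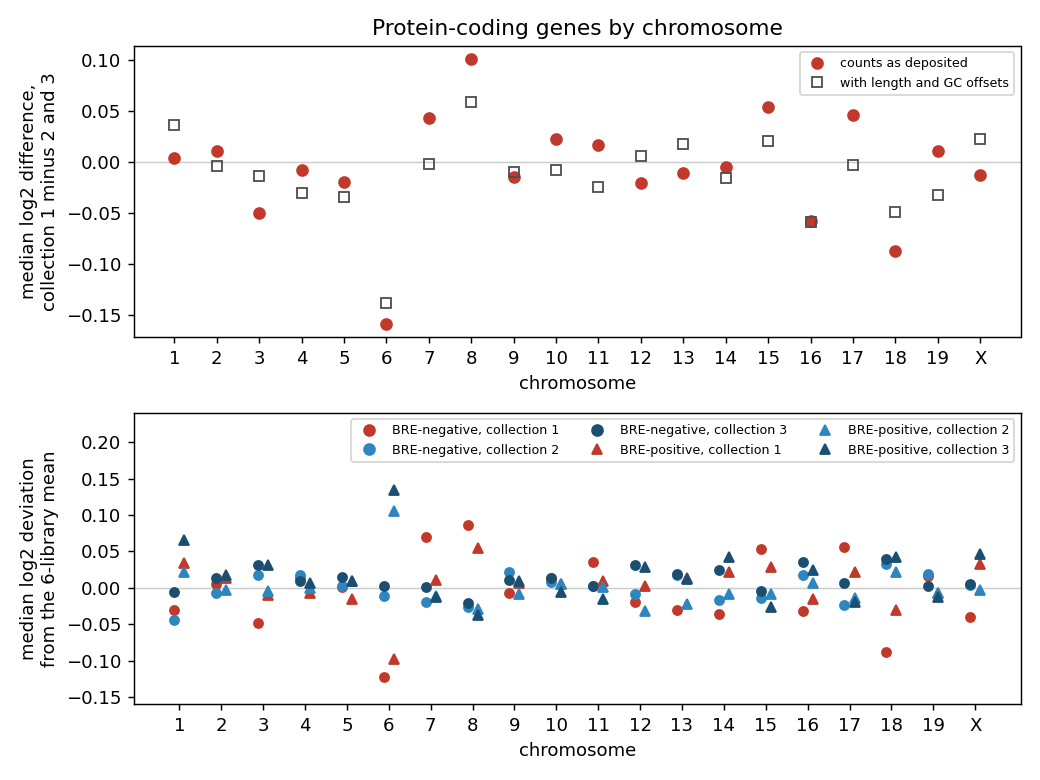
Upper panel: median log2 difference of collection 1 minus collections 2 and 3 (y axis) over protein-coding genes of each chromosome (x axis), as counted (filled) and with offsets for length and GC (open). Lower panel: median deviation of each library from the mean of the 6; chromosome 6 is low in both libraries of collection 1 (-0.122 and -0.098) and high in BRE_pos_2 and BRE_pos_3 (0.105 and 0.134).

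Libraries of collections 2 and 3 can be tested against each other, since the split did not use that difference. Each is a single collection with a negative and a positive library, and the test has 2 residual degrees of freedom. Its p-values cover scatter among libraries and not variation between collections, so they do not extend to other collections. Interferon-response genes were higher and genes of glycolysis and hypoxia lower in collection 3. edgeR's quasi-likelihood test, with reporter state as a block and Benjamini-Hochberg adjusted p under 0.05, called 1050 genes (6.8%) higher and 857 (5.55%) lower in collection 3. Most changes were small, with a median size of 0.38 on the log2 scale, and 106 rose and 19 fell over 2-fold. The counts are unstable: with each library left out in turn they ran from 301 to 2259 higher and from 151 to 2204 lower. All 6 omissions moved both by over 1.5 times. With all 12 libraries in 1 fit, 52 were higher and 88 lower.

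Of 23 genes of antigen presentation and the interferon response, 14 rose in collection 3 and none fell (median 0.57, against 0.0217 over all genes). Usp18, the protease that removes ISG15 (ENSMUSG00000030107, chromosome 6, 121245906 to 121270917), had 1.8 and 1.33 CPM in collection 2 and 9.75 and 9.42 CPM in collection 3. Its log2 difference was 2.62 ± 0.20 (SE, edgeR adjusted p = 5.16e-06), and collection 1 was lower still, at 0.721 and 0.344 CPM (-3.36 against collections 2 and 3, and -1.56 against collection 2 alone). The list did not share this: in collection 1, 8 of 23 members were above all 4 other libraries and 4 below. Shares over all genes were 21.3% and 20.4%. The list summed to 430.8 and 416.3 CPM in collection 1, 326.4 and 331.4 in collection 2, and 487.4 and 466.4 in collection 3. Oasl2, of the oligoadenylate synthetase family, had 1.24 and 1.87 CPM in collection 2 and 8.98 and 7.07 CPM in collection 3 (2.34 ± 0.21, edgeR adjusted p = 3.01e-05).

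Oas2 and Ifi27 rose by 2.16 and 2.15, and Irgm1, an immunity-related GTPase, by 1.88 ± 0.12 (edgeR adjusted p = 3.89e-06), from 6.09 and 5.64 to 21.2 and 22 CPM. Usp18, Oasl2, Oas2, Ifi27 and Irgm1 stayed called in every alternative fit run. The core of the interferon-stimulated response element, here 2 copies of GAAA with 2 bases between on either strand, was found before the start of 6 of the 13 risen list members with a promoter in the table and of 1 of the 7 others, and in 2.98% of all promoters.

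Of 28 genes of glycolysis and hypoxia, 18 fell in collection 3 and 2 rose (median -0.48). Slc16a3, the lactate exporter MCT4 (ENSMUSG00000025161, chromosome 11, 120948480 to 120960868), had 69.2 and 60.1 CPM in collection 2 and 32 and 25.6 CPM in collection 3 (-1.17 ± 0.08, edgeR adjusted p = 5e-06). Collection 1, at 64.8 and 65.3 CPM, was at the level of collection 2. Egln3, an oxygen-sensing prolyl hydroxylase, had 24 and 20.6 CPM, then 9.82 and 11 CPM (-1.10 ± 0.11, edgeR adjusted p = 5.35e-05). The glycolytic enzymes Ldha and Tpi1 fell by 0.84 and 0.93, and Bnip3, a mitophagy receptor induced by hypoxia, fell as well (edgeR adjusted p = 0.000424). In the fit of all 12 libraries Slc16a3, Egln3, Tpi1 and Bnip3 were not called (adjusted p = 0.294, 0.336, 0.0693 and 0.262), and Ldha was.

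The core of the hypoxia response element, ACGTG, was found before the start of 12 of the 17 fallen list members with a promoter in the table, of 4 of the 8 others and in 16.6% of all promoters. Genes and promoters were counted as for the E-box, and some list members had more than 1 promoter (Pfkm had 4). This core also lies inside the E-box above. Egln3, with the second largest fall of the list, is shown with its match in capitals, 229 bases before the start (chr12:54203875-54204124, minus strand):
Egln3: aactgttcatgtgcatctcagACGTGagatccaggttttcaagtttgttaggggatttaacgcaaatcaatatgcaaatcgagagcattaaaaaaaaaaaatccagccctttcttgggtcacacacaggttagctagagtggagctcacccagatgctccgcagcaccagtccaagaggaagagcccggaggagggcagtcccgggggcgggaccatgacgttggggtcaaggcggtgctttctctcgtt

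**Figure D5:**
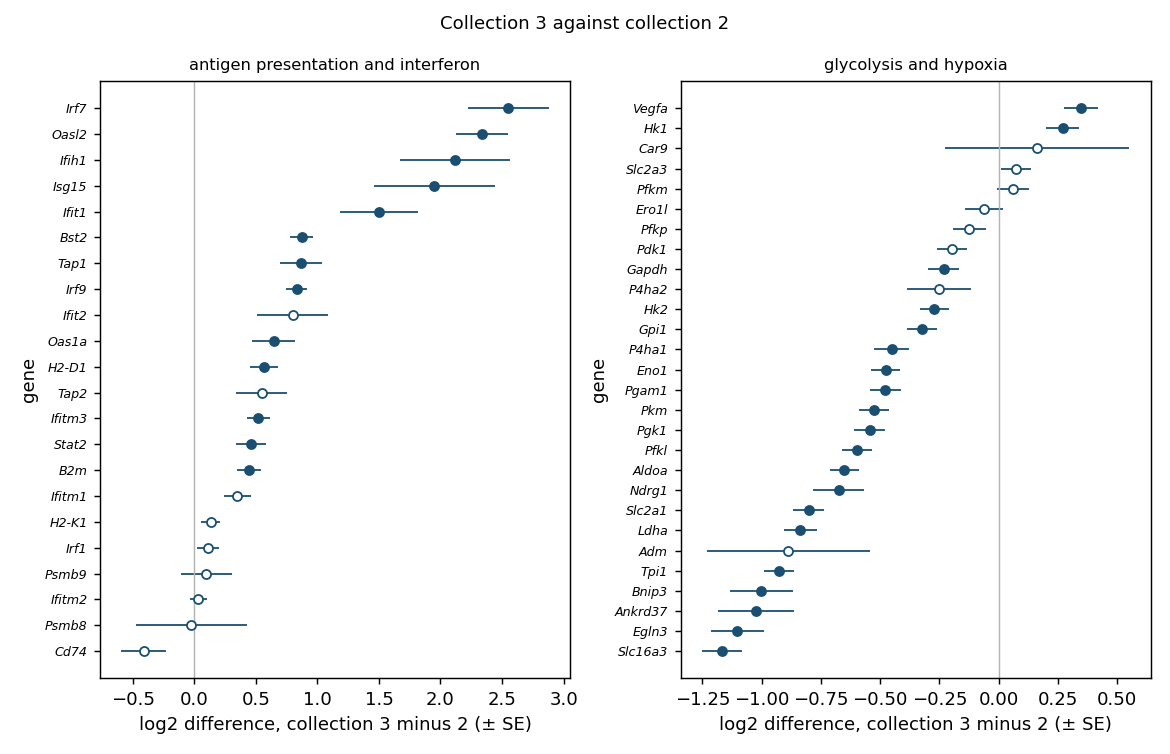
Log2 difference of collection 3 minus collection 2 with its standard error (x axis) for each tested gene (y axis) of 2 lists; filled symbols have an edgeR adjusted p under 0.05. Of 23 interferon and antigen presentation genes, 1 of which is not drawn, 14 are called, all higher, and of 28 glycolysis and hypoxia genes 18 are called lower and 2 higher.

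Pluripotency genes also separated collections 2 and 3. Of 20 naive genes 8 rose in collection 3 and 1 fell, with Nanog up by 0.47 ± 0.06 (edgeR adjusted p = 0.00046). Of 11 core genes none rose and 6 fell, among them Pou5f1 (-0.30 ± 0.06, edgeR adjusted p = 0.00676), which was not called without BRE_neg_3, BRE_pos_2 or BRE_pos_3 (adjusted p = 0.136, 0.102 and 0.338). The de novo methylation genes Dnmt3a, Dnmt3b and Dnmt3l fell by 0.74, 0.66 and 0.94, all with the same sign in both reporter states. Dnmt3l had 134 and 138 CPM in collection 2, 65.8 and 75.9 CPM in collection 3 and 129 and 144 CPM in collection 1.

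Lef1, the transcription factor of WNT signalling, had the largest fall of the named genes (-2.02 ± 0.25, edgeR adjusted p = 0.000327), from 4.12 and 2.96 to 1.11 and 0.654 CPM. Ripply1 and S100a4, a calcium-binding protein also used as a fibroblast marker, fell by 1.28 and 1.04, the latter not called without BRE_pos_2 (adjusted p = 0.0822). Of 23 genes of the ATF4 stress response 13 rose and none fell, with Vldlr up by 1.08 and the glutathione-degrading enzyme Chac1 by 0.84. Of 21 p53 targets 11 rose and 2 fell, with Trp53inp1 up by 0.64 and Cdkn1a by 0.61. Of 25 cell cycle genes 1 rose and 12 fell, including the inhibitor Cdkn1c (by 1.03) and cyclin D2, Ccnd2 (by 0.78). Id2 was the BMP target that rose most, by 1.02 ± 0.12 (edgeR adjusted p = 0.000149). Feeder markers did not shift together: of 27, 2 rose and 3 fell, among them Acta2, which fell by 0.83 and was not called without BRE_neg_3 or BRE_pos_2 (adjusted p = 0.0743 and 0.0919). Of the genes named here and with the pluripotency genes, Nanog, Dnmt3a and Dnmt3l were also called in the fit of all 12 libraries, and the others were not.

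Whether the reporter difference itself changed with the collection was tested within pairs, as BRE_pos minus BRE_neg in collection 1 against that in collections 2 and 3. edgeR called 421 genes (2.73%) with a higher and 162 (1.05%) with a lower difference in collection 1. This test has 1 residual degree of freedom and rests on 1 pair against 2. DESeq2 called 53 and 6, limma on log2(TPM + 1) 0 and 0, and edgeR without the replicate block 0 and 0. BRE_neg_1 had the largest trend with GC content (rho of its deviation 0.391, against 0.084 in BRE_pos_1 and -0.255 to -0.095 in the others). With the length and GC offsets 452 and 275 genes were called.

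Galnt6, a mucin-type glycosyltransferase (ENSMUSG00000037280, chromosome 15), had 40.7 CPM in BRE_neg_1 and 35.5 CPM in BRE_pos_1. It had 15.9 and 18.1 CPM in the other BRE_neg and 35.5 and 45.1 CPM in the other BRE_pos libraries. The negative library of collection 1 was thus at the level of the positive ones, and the interaction was -1.44 ± 0.11 (SE, edgeR adjusted p = 1.93e-08, and 0.0526 to 1 in limma and without the replicate block). Lars2, the mitochondrial leucyl-tRNA synthetase, had 27.1 CPM in BRE_neg_1 and 7.4 to 11.5 CPM in the other 5 libraries (-1.90 ± 0.17). Of the noncoding RNAs, Rmrp (0.89 ± 0.07) and Rpph1, the RNA of RNase P (0.77), had a smaller deficit in BRE_pos cells in collection 1. The histone gene Hist1h4n (0.57) had no deficit in collection 1, at 178.9 CPM in BRE_neg_1 and 188.8 CPM in BRE_pos_1. In collections 2 and 3 it had 137.3 and 146.4 CPM in BRE_neg and 97.75 and 103.8 CPM in BRE_pos cells. Rmrp, Rpph1 and Hist1h4n were also called by DESeq2, and neither they nor Galnt6 and Lars2 were called by limma or without the replicate block.

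Of 635 tested protein-coding genes on chromosome 6, 1 was called with a higher and 20 with a lower reporter difference in collection 1. The shares over all genes were 2.73% and 1.05%. Chromosome 1 held 22 higher and 24 lower calls among 763 genes, and chromosome 8 held 14 and 18 among 755. Without the replicate block no gene was called on any chromosome. The median interaction over the 635 genes of chromosome 6 was -0.102. The medians of the other 19 chromosomes lay between -0.041 and 0.084.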

How the data were processed

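RNA was measured in 12 libraries, 6 of which are compared here. Per the labels' protocols, total RNA was depleted of ribosomal RNA and made into stranded libraries. Per the submitters' processing notes, STAR 2.4.1d and featureCounts 1.4.6 were used with CASAVA 1.8.2, DESeq2 1.6.3 and FastQC 0.11.3, and the genome builds named are GRCm38.p4 and mm10. Whether counting used strand is not stated in these sources. Overlapping and antisense genes may share reads. The authors deposited raw counts for 39179 genes and a table of TPM values, a signal that the authors scaled by length and depth, of which each gene was used once. Library totals were 25862573 to 37079106 counts.

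Counts were scaled by TMM and filtered by edgeR 4.0.16 (R 4.3.3) with minimum count 10 and total 15. Reporter state was the group in the filter, so a gene had to reach the cutoff in 3 libraries. CPM use the scaled totals. Separate cultures are not described in the labels, and p-values cover only variation among the libraries, which may be technical. Collection 1 against collections 2 and 3 was fitted with reporter state as a block and described without a test. Tests were the quasi-likelihood F test of collection 3 against 2 and of the reporter difference between collections, with the pair as a replicate block. The pairing comes from the series' statement that cells were collected in pairs. Deviations of same-numbered libraries from the mean of their state had correlations across genes of 0.712, 0.589 and 0.529, and the others -0.545 to 0.122. Such deviations cancel out within each state, so positive values in some pairs push others down. The value of 0.712 also includes the split that was chosen, so these correlations are no independent test of the pairing.

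The comparison, the 34 gene lists (621 genes, 10 unmatched, 539 tested) and the markers were chosen with earlier results of these data known. Named genes are the 8 largest differences in each direction at a mean log2 CPM of at least 1 without overlap, the 5 largest calls in each direction, the 5 lowest interaction p, up to 4 members of a list and a fixed set. One member of the interferon list enters its counts but is not reported here by itself. Predicted genes, pseudogenes and further copies of a family were left out. List members outside this rule, such as Cdh1, were picked with their values in view. Coordinates are GENCODE M21 (GRCm38), 1-based, and promoters RefSeq GRCm38.p6. The fits were tested on simulated data. Alternatives used DESeq2 1.42.0, limma 3.58.1 on log2(TPM + 1) and log2(TPM + 0.1), RLE scaling, other filters, length and GC offsets, other sets of libraries and each library left out. DESeq2 gave no adjusted p for some genes, which were not counted as lost.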

Additional observations from a re-analysis of the deposited data

Results flagged for a closer look

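In 3 genes 1 of the 4 libraries of collections 2 and 3 was far from the other 3, which chance alone gives in about 1 in 20 groups. Many of the genes named in the text were screened, so a few such genes are no more than chance gives. BRE_pos_2 was the low library each time, with 3.69 CPM of Dazl, 2.28 CPM of Dcn and 0.434 CPM of Gna14.

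The reporter difference (log2, BRE_pos minus BRE_neg) in collection 1 differed from that in collections 2 and 3 for 583 genes by edgeR's interaction test, a count that fell to 0 without the replicate block. Among the genes named by rule, it was higher in collection 1 for Rmrp (0.89), Rpph1 (0.77), Hist1h4n (0.57), Rn7sk (0.52), Bnip3 (0.50) and Gbx2 (0.48). The same held for Tdgf1 (0.42), Hmgcs1 (0.32), Tbx3 (0.29), mt-Nd5 (0.29), Cyp51 (0.27) and Fos (0.27), and for Sparc (0.26), named outside the rule. It was lower for Lars2 (-1.90), Galnt6 (-1.44), Lefty1 (-0.70), Col1a2 (-0.67), Thbs1 (-0.59), Pecam1 (-0.37), Lefty2 (-0.34), Malat1 (-0.30) and Plk2 (-0.30). Rn7sk was not called by DESeq2 (adjusted p = 0.288), by limma or without the replicate block.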

How the results depend on the processing

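No tested result changed direction, and of the differences described without a test only those of Id2 and Pou5f1, whose groups overlapped, changed sign under some settings. The counts of collection 1 against collections 2 and 3 past 2-fold (257 higher, 447 lower) became 993 and 941 at 1.5-fold, 716 and 984 without a count filter, and 35 and 132 by limma on log2(TPM + 1). With a mean TPM of at least 1 they were 49 and 153. Log2(TPM + 0.1) gave 96 higher, the filter at 1 CPM 255 lower, BRE_neg libraries alone 425 higher, and collection 2 alone as reference 491 higher. Leaving out 1 library gave 251 to 394 higher (394 without BRE_pos_1) and 444 to 595 lower. Length and GC offsets moved the median of chromosome 8 to 0.0586; with 1 library left out, chosen after seeing the data, it was 0.0884 to 0.1263, and that of chromosome 6 -0.2005 to -0.1083.

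For collection 3 against 2 (1050 higher, 857 lower), the 4 libraries alone gave 2255 and 2206, all 12 gave 52 and 88, no reporter block 336 and 199, and DESeq2 529 higher. By limma the counts were 169 and 182 on log2(TPM + 1), 169 and 178 on log2(TPM + 0.1), and 61 and 57 at a mean TPM of 1. No count filter gave 1312 lower and the offsets 1560 lower. Leaving out 1 library gave 301 to 2259 higher and 151 to 2204 lower. The fit of all 12 libraries lost 17 of the calls named in the text; the cause was not tested.

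The test of the reporter difference (421 higher, 162 lower) had the pair as a replicate block. With no replicate block it called 0 and 0, limma 0 and 0 with either pseudocount and 1 and 1 at a mean TPM of 1, and DESeq2 53 and 6. RLE scaling gave 634 and 251, the filter at 1 CPM 334 lower, no count filter 275 lower and the offsets 275 lower. Leaving out a library left no residual degrees of freedom and was not run. Genes of few counts are limited by depth.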
